A study of Mus musculus with 4 samples.

Results

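Transcripts of 3 families of splicing proteins were compared between transplanted blood progenitors recovered from untreated and from 5-fluorouracil-treated mice. The members were all deposited gene symbols that begin with Hnrnp, with Snrp, or with Srsf and a digit, and symbols containing -ps would have been left out. The rule took 41 of the 23284 symbols, of which 18 are Hnrnp, 12 Snrp and 11 Srsf genes. Symbols with the prefix Snrnp and the older names Hnrpdl and Hnrpll do not meet the rule and are described with the rest of the pathway.

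The cells were EGFP+ cells sorted from recipient marrow 24 h after transplantation. Donor cells were LSK cells (Lin- Sca1+ c-Kit+), the marrow fraction rich in stem and multipotent progenitor cells, taken from CAG-EGFP mice, in which the ubiquitous CAG promoter drives the fluorescent protein, and 100000 were given to each wild-type recipient. Control recipients had no treatment, and 5-FU recipients had received 200 mg/kg 5-fluorouracil, a drug that blocks thymidylate synthesis, intravenously 2 days before the transplant. Each group had 2 libraries, labelled as biological replicates. The labels give no age for the mice. The column headers of the 5-FU files read Day3, and the timing given here is that of the labels.

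Splicing removes introns from new transcripts. The Snrp genes encode proteins of the small nuclear ribonucleoproteins (snRNPs), the particles that recognise splice sites, and a ring of Sm proteins sits on most spliceosomal RNAs. Serine/arginine-rich proteins, the products of the Srsf genes, bind exons and mostly help nearby splice sites to be used, while hnRNP proteins coat nascent transcripts and often act in the opposite sense, besides roles in export, stability and translation. Many of these genes are highly expressed in dividing cells.

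Promoter sequence was not used by the rule. Of the 41 members, 38 had a RefSeq promoter window in GRCm38.p6 (Hnrnpul2, Snrpb and Snrpd1 had none), and the 250 bases before each annotated start were searched on both strands. The core of ETS-type sites, CTTCCG, was present before 7 of 10 Snrp genes (70%), 6 of 17 Hnrnp genes (35.3%) and 5 of 11 Srsf genes (45.5%), against 30% of the tested genes with a window and 15.3% of all 27025 genes with one. The 7 Snrp stretches are shown because this is the family with the largest change; each is 30 bases in GRCm38.p6, reads 5′ to 3′ on the gene's strand, and has the match nearest to the start in capitals.
Snrpa, chr7:27196273-27196302, minus strand: acgtgatactggCGGAAGgggaagaggtgt
Snrpa1, chr7:66060215-66060244, plus strand: gccccttacctgCGGAAGcccaagttagac
Snrpb2, chr2:143063048-143063077, plus strand: cgcggggaagctCTTCCGgtattagtttca
Snrpc, chr17:27840043-27840072, plus strand: agaggccggaagCGGAAGtcctacccctcc
Snrpd2, chr7:19149794-19149823, plus strand: agccgcaggagaCGGAAGtcccgcccttct
Snrpe, chr1:133610279-133610308, minus strand: acgaccactgcaCTTCCGtttccgggtctt
Snrpg, chr6:86371384-86371413, plus strand: tggcgacgcaacCGGAAGcgtggctctggt

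The match lay 9 bases before the start in Snrpb2 and 144 in Snrpg, the nearest and the farthest of the 7. These distances are to RefSeq's starts: by the gene coordinates of GENCODE M21, 5 of the 7 stretches lie inside the gene (Snrpa1, Snrpb2, Snrpc, Snrpd2 and Snrpg), that of Snrpe crosses the gene's edge and that of Snrpa lies outside. Of the 7 genes, Snrpb2 and Snrpa did not pass the test described below and the other 5 rose. The windows of Snrpf, Snrpd3 and Snrpn held no match, and Snrpf and Snrpd3 had the largest changes of the prefix. The GC-rich hexamer GGCGGG was found before 10 of 11 Srsf genes (90.9%), 15 of 17 Hnrnp genes (88.2%) and 3 of 10 Snrp genes (30%), against 62.3% of the tested genes. Other GC-rich sequences were not searched. The CCAAT motif was present before 13 of 17 Hnrnp genes (76.5%), 4 of 10 Snrp genes and 3 of 11 Srsf genes, against 40.8% of the tested genes, and the motif TATAAA before 5 of the 38 (13.2%) against 7.70%. CACGTG, the E-box bound by MYC and related factors, was in 4 of 38 windows (10.5%) against 10.3% of the tested genes.

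The promoter of Hnrnpa1, the Hnrnp gene with the largest change, is shown because it holds CCAAT at 4 places, in capitals, all on the gene's strand. It covers chr15:103240147-103240396 (GRCm38.p6, plus strand), with no annotated exon inside.
Hnrnpa1: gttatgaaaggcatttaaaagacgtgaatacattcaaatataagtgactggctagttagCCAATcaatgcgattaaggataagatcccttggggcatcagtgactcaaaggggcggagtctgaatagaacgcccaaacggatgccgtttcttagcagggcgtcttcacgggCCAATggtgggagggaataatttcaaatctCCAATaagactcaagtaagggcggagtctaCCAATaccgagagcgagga
Upstream of Srsf5, the SR gene whose level differed from control in the opposite direction, 102 bases free of annotated exons lie at chr12:80945397-80945498 (plus strand), with 2 ETS cores in capitals.
Srsf5: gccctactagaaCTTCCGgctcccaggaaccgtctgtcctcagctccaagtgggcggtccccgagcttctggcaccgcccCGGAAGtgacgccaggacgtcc
These matches are descriptions of the letters, not shown to be binding sites.

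The deposited values are FPKM, that is, fragments scaled by transcript length and by library size, so levels can be compared between genes. They summed to between 678222 and 762107 per library. The labels and files state no read numbers. Worth of 1 read was estimated from genes of low value, relative to 5-FU library 2. It was 1.31 and 1.26 in control libraries 1 and 2 and 1.07 in 5-FU library 1. Control libraries would be shallower if values were scaled by total reads, but the normalization setting is not stated. Genes above 0 numbered 14300 and 14352 in control and 14395 and 14062 in 5-FU libraries 1 and 2. The progenitor marker Kit was present at 65.5 to 103 FPKM in the 4 libraries, and none of the 12 stem and progenitor markers was at 0. Their summed FPKM was 826 and 767 in control and 699 and 890.1 in 5-FU libraries. Of 11 tested markers 1, Ly6a, rose (9.09%), near the 8.23% of all tested genes. Transcripts of other cells were present as well. The 14 macrophage markers summed to 24597 and 28808 FPKM in control libraries and to 21421 and 11222 in 5-FU libraries 1 and 2, where 2 of the 14 fell. Of the other markers tested, 5 of 9 granulocyte, 8 of 9 erythroid and 5 of 8 B lineage markers fell, against 4.67% of all tested genes. Sums for 9 granulocyte markers were 11712 and 9374 against 3326 and 3172, for 10 erythroid markers 1316 and 1869 against 89.9 and 116, and for 9 B lineage markers 436 and 429 against 235 and 177. Among the markers at 0 were Alas2 in 5-FU library 1, Igll1 in both 5-FU libraries, and Pax5 in all but 5-FU library 1. In such bulk samples fewer cells of a type and less RNA per cell cannot be told apart, and the part of these cell types in the results below was not tested.

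Splicing factor genes were mostly higher in cells from 5-FU recipients, and the Snrp genes most of all. Of 39 members tested (at least 1 FPKM in at least 2 libraries, a level that each of the 39 reached in all 4), 18 rose, 21 did not pass and 0 fell at an adjusted p under 0.05 in limma. In the background, 8.23% of the 11496 tested genes rose and 4.67% fell. By prefix, 8 of 11 Snrp genes, 6 of 10 Srsf genes and 4 of 18 Hnrnp genes rose. The median log2 fold change on the scale log2(FPKM + 1) was 1.21 for Snrp, 0.84 for Srsf and 0.64 for Hnrnp genes, against -0.01 for all tested genes. Without regard to the model, 32 of 39 members were above both control libraries in both 5-FU libraries, as were 31.4% of tested genes. Srsf5 was the 1 member below both, as were 30.7% of tested genes, and 6 members overlapped between groups. Srsf5 was also the 1 member lower at an unadjusted p under 0.05, against 14.4% of tested genes. The count depended on the libraries used, and its range with 1 library left out is given at the end. Such a fit takes the spread of the lone library from the other group. With 5-FU library 1 alone, the median log2 difference from the control mean was 0.85 for Snrp, 0.60 for Srsf and 0.57 for Hnrnp genes. With 5-FU library 2 alone it was 1.56, 1.02 and 0.76. The medians of all tested genes were 0.0055 and -0.0025. With no filter on low values 0 members passed in limma. There 27 of 41 members had an unadjusted p under 0.05, as did 3680 of all 16391 tested genes.

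Summed over its 12 genes, the Snrp family had 1767 and 1582 FPKM in control libraries and 3001 and 4659 in 5-FU libraries 1 and 2. The 5-FU mean was 2.29 times the control mean. The 11 Srsf genes summed to 1148 and 1186 against 1494 and 1924 FPKM, a ratio of 1.46, and the 18 Hnrnp genes to 1680 and 1841 against 2834 and 3023 FPKM, a ratio of 1.66. Neither 5-FU sum overlapped a control sum in any of the families.

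**Figure D1:**
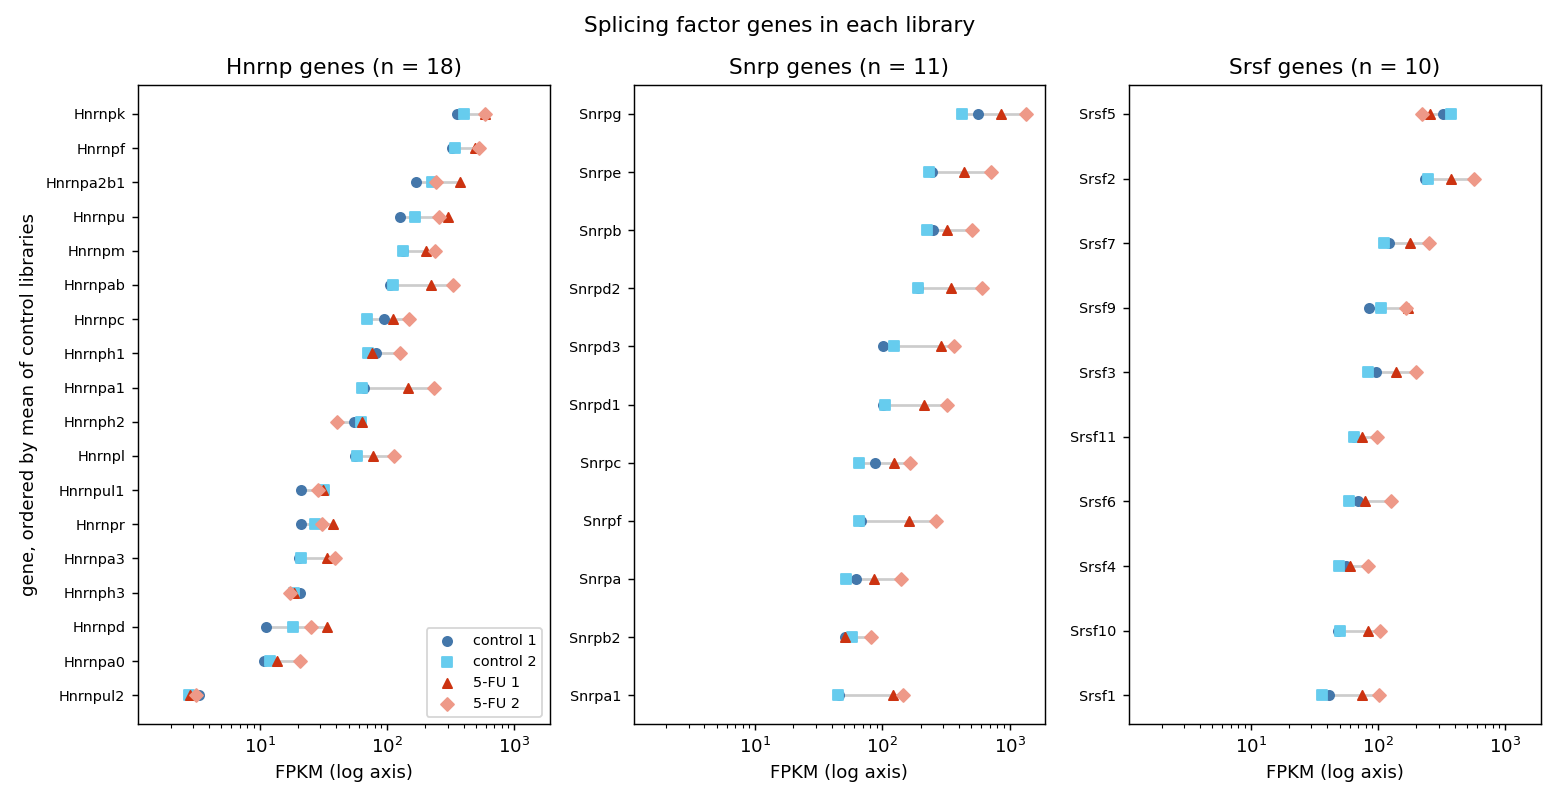
FPKM of the 39 tested members in each of the 4 libraries (log axis, 1 panel per prefix, genes ordered by the mean of the control libraries). Circles and squares are control libraries 1 and 2, triangles and diamonds 5-FU libraries 1 and 2; in 32 of 39 rows both 5-FU points lie to the right of both control points, and Srsf5 is the row where both lie to the left.

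Among the Snrp genes the Sm ring moved together. Its 7 proteins, B, D1, D2, D3, E, F and G, close around the Sm site of U1, U2, U4 and U5 RNA, and 6 of the 7 genes rose, with Snrpb the exception. All 7 had both 5-FU libraries above both control libraries, and the 7 genes together went from 1521 and 1363 to 2620 and 4125 FPKM.

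Snrpf, which encodes Sm F (chr10:93583029-93589706), had 68.2 and 65.8 FPKM in control against 163 and 266 in 5-FU libraries. The control pair lay close together and both 5-FU libraries were at least 1.24 higher on the log2 scale, the largest change among the members at 1.62 (SE 0.25, adjusted p = 0.014). Of the annotated exonic bases of Snrpf, 85.4% also lie in exons of Ccdc38 and 4933408J17Rik on the opposite strand, and the labels name no strand-specific protocol. Those genes had at most 1.87 FPKM in any library.

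For Snrpd3, encoding Sm D3 (chr10:75517551-75537381), control values of 101 and 124 FPKM stood against 291 and 368 in 5-FU cells, a change of 1.54 (SE 0.22, adjusted p = 0.012). Snrpd1, for Sm D1, had 101 and 105 FPKM in control against 214 and 321 in 5-FU libraries, a change of 1.34 (SE 0.24, adjusted p = 0.017). Both genes were more than 1 unit higher on the log2 scale in every pairing of a 5-FU with a control library.

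Snrpg, encoding Sm G (chr6:86371304-86379328), was the most abundant member in both groups, with 565 and 420.3 FPKM in control against 849.8 and 1351 in 5-FU libraries. Its control libraries differed by 0.43 and its 5-FU libraries by 0.67 on the log2 scale, and the change was 1.14 (SE 0.30, adjusted p = 0.049). Snrpe, for Sm E, had 246 and 233 FPKM in control against 435 and 710.5 in 5-FU libraries, a change of 1.21 (SE 0.27, adjusted p = 0.030). For Snrpd2, Sm D2, control values were 192 and 191 FPKM and 5-FU values 347 and 606 FPKM, a change of 1.25 (SE 0.28, adjusted p = 0.030). In all 3 genes 5-FU library 2 was well above library 1, while the control libraries of Snrpe and Snrpd2 lay close together.

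Snrpb encodes Sm B and B′, made from the same gene by alternative splicing. It had 249 and 223 FPKM in control against 320.5 and 503 in 5-FU libraries, a log2 difference of 0.77 (SE 0.26) that did not pass (adjusted p = 0.088). Snrpn, the imprinted gene for the related protein Sm N of brain and heart, was at 0.0385 and 0.299 FPKM in control against 0.679 and 0.238 in 5-FU libraries and was not tested. Its groups overlapped, and 34.1% of its exonic bases are shared with other genes, among them Snurf on the same strand.

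The order of the Sm ring genes by control mean was Snrpg (493 FPKM), Snrpe (239.8), Snrpb (236), Snrpd2 (192), Snrpd3 (112), Snrpd1 (103) and Snrpf (67.0). Snrpe and Snrpb changed places between the control libraries and differed by less than the SD of Snrpb, 18.4 FPKM. Snrpd3 and Snrpd1 differed by less than the SD of Snrpd3, 16.8 FPKM. In 5-FU libraries the order of the means was Snrpg (1101 FPKM), Snrpe (573), Snrpd2 (477), Snrpb (412), Snrpd3 (329), Snrpd1 (268) and Snrpf (214). Both 5-FU libraries gave this order, each value being higher in library 2.

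The particle-specific members differed from each other. Snrpa1 (U2 A′, chr7:66059003-66074587), a U2 protein that binds the RNA together with U2 B″, had 45.8 and 44.5 FPKM in control against 120.1 and 146 in 5-FU libraries. The change of 1.53 (SE 0.19, adjusted p = 0.0095) had the smallest p of all members. Its partner Snrpb2 (U2 B″) had 50.4 and 57.3 FPKM in control against 50.8 and 81.9 in 5-FU libraries. These groups overlapped, and the difference of 0.26 (SE 0.26) did not pass (adjusted p = 0.53). For U1, Snrpc (U1 C) went from 87.3 and 65.1 to 124 and 166 FPKM, a rise of 0.92 (SE 0.23, adjusted p = 0.044). Snrpa (U1 A) had 62.3 and 51.4 against 85.3 and 140 FPKM and a similar difference of 0.94 (SE 0.26), with an adjusted p of 0.057 that did not pass. Whether Snrpa and Snrpc differ in their change was not tested.

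Of the SR genes, 6 rose, and they include the best studied of the family. Srsf1 (SF2/ASF, chr11:88047373-88053755), the prototype SR protein, had 41.3 and 36.1 FPKM in control against 75.6 and 103 in 5-FU libraries. Its log2 fold change of 1.17 (SE 0.22, adjusted p = 0.019) was the highest of the prefix. Srsf2 (SC35), which marks nuclear speckles, was far more abundant, at 235 and 249 FPKM in control against 377 and 567 in 5-FU libraries. It rose by 0.93 (SE 0.25, adjusted p = 0.049), and 25.3% of its exonic bases overlap genes on the opposite strand, among them Mfsd11, which had 52.6 and 62.5 against 31.8 and 32.5 FPKM.

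Srsf10, which becomes a repressor of splicing when dephosphorylated, had 48.5 and 50.2 FPKM in control against 84.0 and 105 in 5-FU libraries, a rise of 0.91 (SE 0.20, adjusted p = 0.028). Srsf3, the smallest SR protein, had 96.8 and 83.1 against 138 and 198 FPKM, a rise of 0.87 (SE 0.23, adjusted p = 0.048). Srsf7 and Srsf9 rose by 0.85 and 0.82. In each of these 4 genes the lowest 5-FU value exceeded the highest control value. Srsf6, Srsf4 and Srsf11 also lay above both control libraries in both 5-FU libraries, with differences of 0.63, 0.43 and 0.40, but did not pass, at adjusted p of 0.14, 0.23 and 0.22. Of the exonic bases of Srsf4, 43.0% overlap a gene on the opposite strand.

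Srsf5 stood apart from the rest of its family. It was the most abundant SR transcript of the control libraries, at 327 and 377 FPKM, and had 255 and 223 in 5-FU libraries (chr12:80945504-80950507). Both 5-FU values lay below both control values, a log2 difference of -0.56 (SE 0.21) that did not pass (adjusted p = 0.11). By mean level it had rank 3 of the 41 members in control and rank 13 in 5-FU libraries, where Srsf2 was the most abundant SR gene. Srsf12 was at 0.238 and 0.138 FPKM in control and listed at 0 in both 5-FU libraries, and was not tested.

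**Figure D2:**
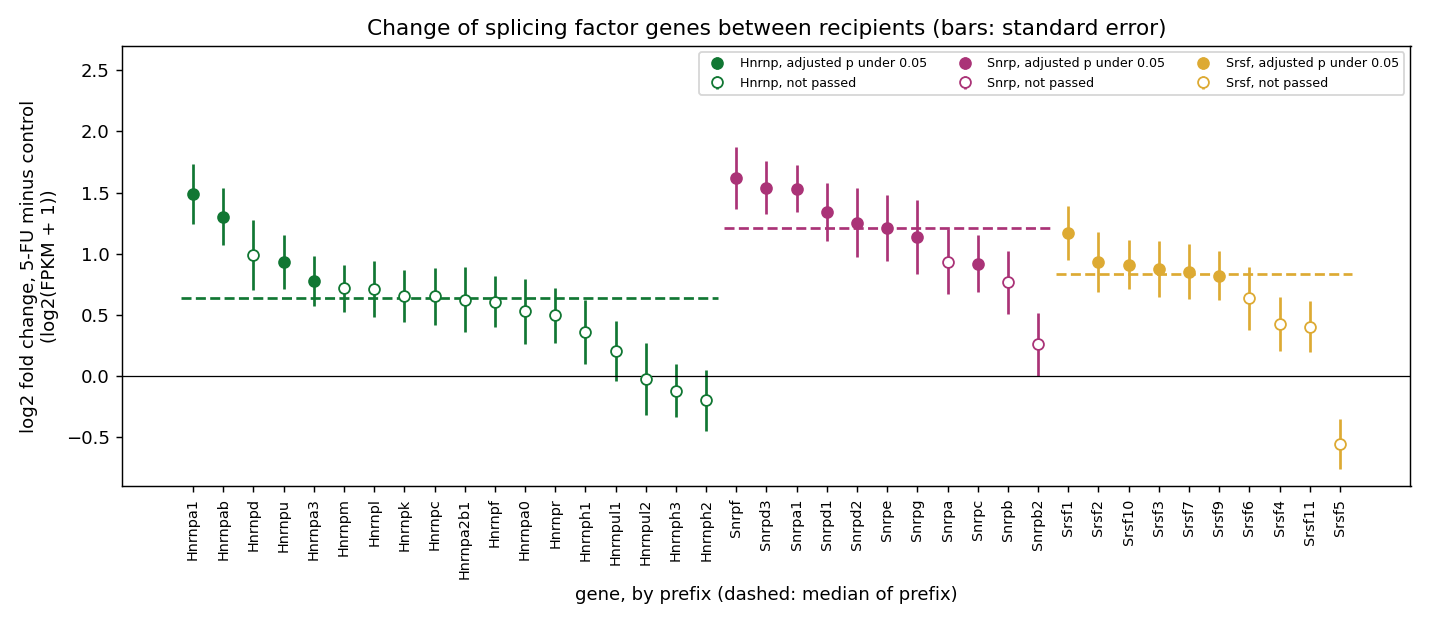
Log2 fold change (5-FU minus control, on log2(FPKM + 1)) with its standard error for the 39 tested members, by prefix and in order of size. Filled points passed an adjusted p of 0.05, open points did not, and dashed lines mark the prefix medians of 0.64, 1.21 and 0.84.

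The hnRNP genes were less even, and the 4 that passed were 3 of the 5 A/B type genes and Hnrnpu. The 6 genes outside the A/B, F/H and U types had a median of 0.68, and none passed. Whether the types differ was not tested. Hnrnpa1 encodes hnRNP A1, an abundant shuttling protein that antagonises SR proteins at many exons (chr15:103240432-103246692). It had 66.6 and 64.2 FPKM in control against 147 and 234 in 5-FU libraries, a log2 change of 1.49 (SE 0.25, adjusted p = 0.016). Copies of Hnrnpa1 exist elsewhere in the genome, among them the annotated Hnrnpa1l2-ps, and reads shared with them make its level uncertain. Hnrnpab, a related protein that binds RNA and single-stranded DNA, had 106 and 111 FPKM in control against 220.3 and 328 in 5-FU libraries, a rise of 1.30 (SE 0.24, adjusted p = 0.018). Exons of Phykpl on the opposite strand cover 29.1% of its exonic bases.

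Hnrnpa3 was less abundant, at 20.5 and 21.1 FPKM in control against 33.8 and 39.2 in 5-FU libraries (0.78, SE 0.20, adjusted p = 0.047). Hnrnpa2b1, whose protein is a partner of hnRNP A1 in the core particle, had 169 and 225 FPKM in control against 374 and 244 in 5-FU libraries. The groups did not overlap, but control library 2 and 5-FU library 2 lay close to each other, and the difference of 0.62 (SE 0.27) did not pass (adjusted p = 0.16). Hnrnpa0 differed by 0.53 and did not pass.

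Hnrnpu encodes SAF-A, a large protein that ties RNA to chromatin (chr1:178321108-178337797). It had 127 and 167 FPKM in control against 304 and 257 in 5-FU libraries, a rise of 0.93 (SE 0.22, adjusted p = 0.035). Its relatives Hnrnpul1 and Hnrnpul2 overlapped between groups, with differences of 0.20 and -0.03 that did not pass.

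Hnrnpk and Hnrnpf were the most abundant hnRNP genes. Hnrnpk, a poly(C)-binding protein, had 353 and 403 FPKM in control against 594 and 593 in 5-FU libraries, a difference of 0.65 (SE 0.21) that missed the threshold (adjusted p = 0.080). Hnrnpf, which binds G-rich elements, had 327 and 344 against 490.3 and 534 FPKM, a difference of 0.61 (SE 0.21, adjusted p = 0.090). Exons of opposite-strand genes cover 26.5% of the exonic bases of Hnrnpf. Hnrnpm had 134 and 133 against 203 and 239 FPKM and just missed the threshold (0.72, SE 0.19, adjusted p = 0.0501). It shares 14.7% of its exonic bases with March2 on the same strand, which had 54.4 and 52.2 against 34.3 and 33.4 FPKM. Hnrnpd (AUF1, a regulator of mRNA decay) was higher by 0.99, Hnrnpl by 0.71, Hnrnpc by 0.65 and Hnrnpr by 0.49, and none of the 4 passed. In all of these 7 genes both 5-FU libraries were above both control libraries.

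The F/H type did not share that order beyond Hnrnpf. Hnrnph1 had 81.9 and 70.9 FPKM in control against 76.5 and 126 in 5-FU libraries, and Hnrnph3 20.8 and 18.5 against 18.7 and 17.2. Hnrnph2, on the X chromosome, had 54.8 and 62.3 FPKM in control against 63.7 and 40.3 in 5-FU libraries. All 3 overlapped between groups and did not pass, with differences of 0.36, -0.12 and -0.20. Among these and the U-type relatives lie the 5 Hnrnp members whose groups overlapped.

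The 5-FU libraries differed from each other in these genes. All 11 tested Snrp genes were higher in 5-FU library 2 than in library 1, as were 8 of 10 Srsf and 10 of 18 Hnrnp genes, against 51.9% of all tested genes. The median difference, library 2 minus library 1, was 0.67 on the log2 scale for Snrp, 0.44 for Srsf and 0.12 for Hnrnp genes, against 0.03 for all tested genes. Control library 2 exceeded library 1 in 3 of 11 Snrp, 4 of 10 Srsf and 12 of 18 Hnrnp genes, with medians of -0.05, -0.08 and 0.07. Against the control mean, the Snrp median was 0.85 in 5-FU library 1 and 1.56 in 5-FU library 2.

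Other measures moved with this difference between the 5-FU libraries. The macrophage marker sum of 5-FU library 2 was 0.524 times that of library 1, and the sum over 16 proliferation genes was 1.36 times as high. In both 5-FU libraries macrophage marker sums were below and proliferation sums above those of both control libraries, and their part in the splicing factor values was not tested.

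**Figure D3:**
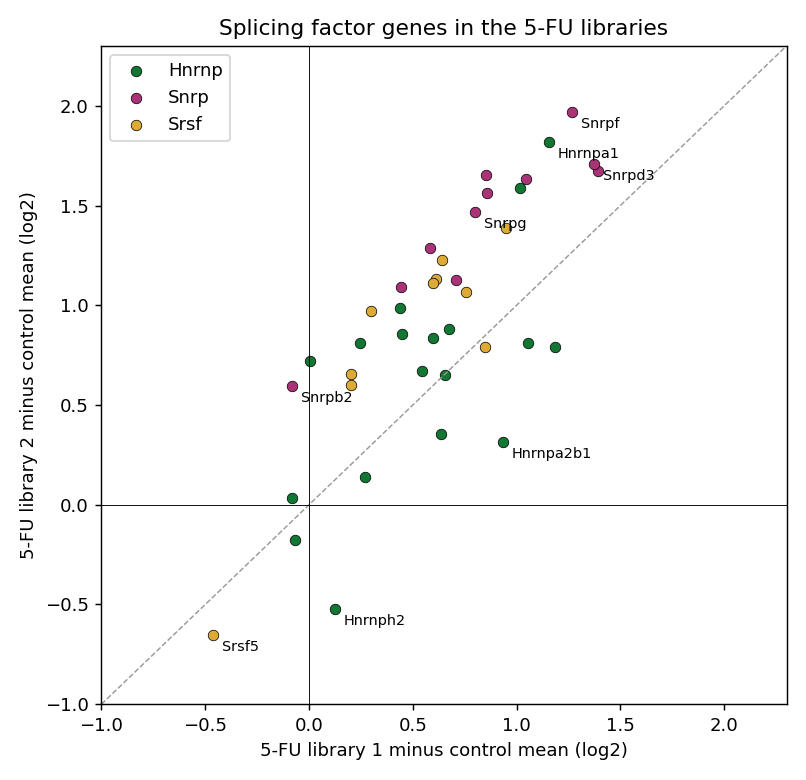
Log2 difference of 5-FU library 1 (horizontal axis) and 5-FU library 2 (vertical axis) from the same mean of the control libraries, 1 point per tested member, coloured by prefix. Points above the dashed line of equality are higher in library 2; all 11 Snrp points lie above it, and Hnrnpa2b1 and Hnrnph2 are among those below it.

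Transcript length differed between the families. By GENCODE M21, the median length of a gene's coding transcripts had a family median of 1161 bases in Snrp, 1843 in Srsf and 2078 in Hnrnp genes. Across the 39 tested members, length and log2 fold change had a Spearman correlation of -0.40, but within the prefixes it was -0.46 (18 Hnrnp), -0.07 (11 Snrp) and 0.49 (10 Srsf). These members share the same 4 libraries and are not replicates.

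The rest of the splicing pathway was taken from 8 lists with 137 genes outside the 3 prefixes. Of these, 37 rose (27.0%), 0 fell and 100 did not pass, at a median log2 fold change of 0.54. The share of all tested genes that rose was 8.23%. Of the 15 genes listed for assembly, arginine methylation and import of Sm proteins, 8 rose, with a median of 0.81. They include genes of the SMN complex and of the PRMT5 methyltransferase complex. The 2 negative differences of this list, Snupn (-0.52) and Tgs1 (-0.35), did not pass. Gemin6 went from 10.2 and 7.42 to 26.5 and 33.4 FPKM, a rise of 1.66, and Gemin4 from 5.82 and 7.50 to 18.6 and 20.5 FPKM, a rise of 1.43.

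The Lsm list, with 6 of 10 genes rising and a median of 0.97, holds the ring on U6 RNA, which resembles the Sm ring. It also holds Lsm genes outside that ring, among them Lsm1 of cytoplasmic decay. The genes that did not pass were Lsm4, Lsm11, Lsm1 and Lsm10, with differences of 0.71, 0.54, 0.08 and 0.01. Lsm2 rose by 1.56 and Lsm5 by 1.5. Only 1 of 7 Snrnp genes rose (14.3%, against 8.23% of all tested genes), Snrnp40 of the U5 particle by 1.05. Snrnp25 of the minor spliceosome was 0.82 higher without passing (adjusted p = 0.0502).

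Factors of the U2 snRNP and the 3′ splice site had 3 of 18 rising (16.7%, against 8.23% of all tested genes) and a median of 0.61. U2af1, which reads the AG at the intron's end and is recurrently mutated in myelodysplasia, went from 29.1 and 38.3 to 114 and 96.5 FPKM, a rise of 1.62 (SE 0.22, adjusted p = 0.010). Sf3b3 rose by 1.24. In the list of tri-snRNP and catalytic factors 6 of 32 rose (18.75%), with a median of 0.43, Prpf31 by 1.17 and Eftud2 by 1.10. Exon junction and export factors had 7 of 17 rising, with a median of 0.58, Alyref by 1.43 and Magohb by 1.38. Among other hnRNP-type genes 5 of 21 rose (23.8%), Syncrip by 1.22 and Ptbp1 by 1.11, and Hnrpdl by 0.97, the last named after its value was seen.

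Kinases and partners of SR proteins were closest to the background. Of 17 genes 1 rose (5.88%, against 8.23% of all tested genes), the splicing activator gene Tra2b by 0.83. The list median was 0.10. Clk1, a kinase that phosphorylates SR proteins in the nucleus, had 125 and 102 FPKM in control against 65.8 and 71.5 in 5-FU libraries. The groups did not overlap, and the difference of -0.71 (SE 0.20) did not pass (adjusted p = 0.055).

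**Figure D4:**
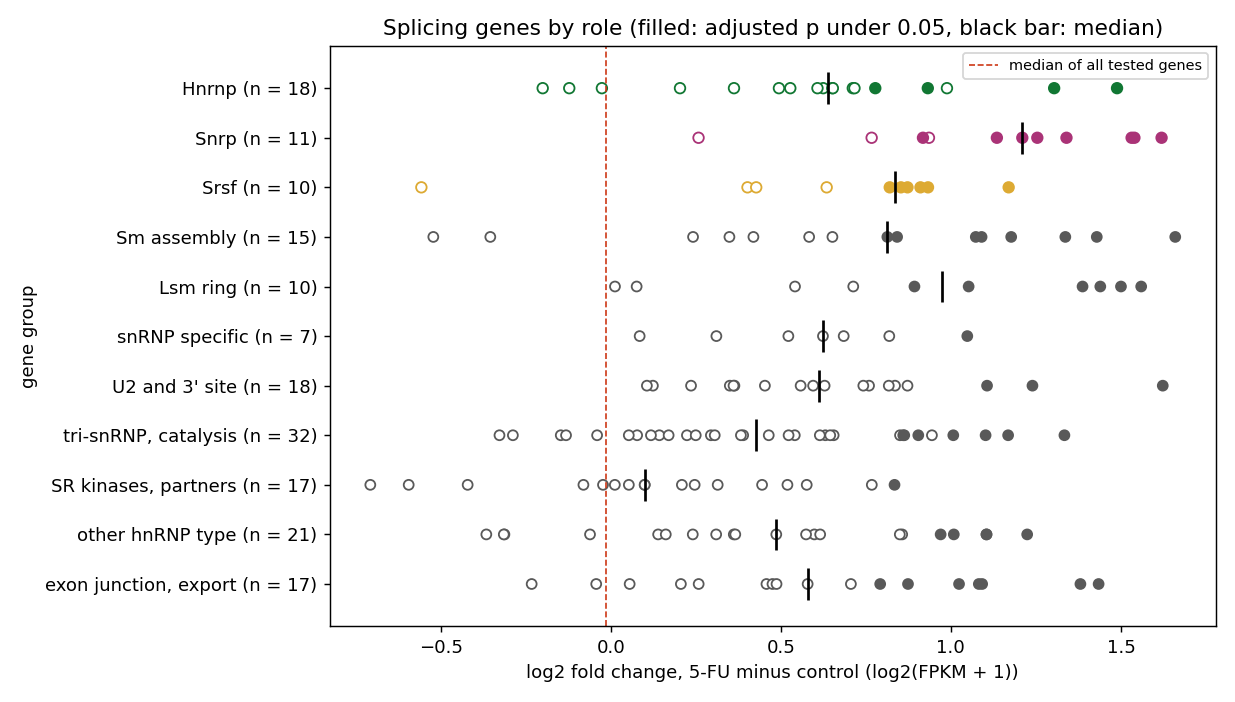
Log2 fold change (5-FU minus control, on log2(FPKM + 1)) of each tested gene in the 3 prefixes and in the 8 lists of the rest of the pathway, 1 row per group. Filled points passed an adjusted p of 0.05, black bars are medians, and the dashed line is the median of all tested genes, -0.01; the Snrp median of 1.21 is the highest and the SR kinase list's 0.10 the lowest of the 11 rows.

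Growth genes of the same libraries gave a scale for these changes. All 12 genes of a list of MYC, nucleolar genes and the polyamine synthesis genes Srm and Odc1 rose, with a median of 1.49. Of 16 proliferation genes 15 rose, with a median of 1.95, and 8.23% of all tested genes rose. The Snrp median of 1.21 lay below both.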

How the data were processed

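RNA of EGFP+ cells was sequenced in 4 libraries as 75 bp single-end reads from SMART-Seq Ultra Low Input cDNA, per the labels' protocols. The authors deposited FPKM per gene symbol, made with TopHat2 2.0.13, Bowtie2 2.2.3, SAMtools 0.1.19 and Cuffnorm 2.2.1 on mm10, per the submitters' processing notes. Cuffnorm's normalization setting, the gene annotation and the strand setting are stated neither in the labels nor in the file headers. FPKM sum over a gene's isoforms, so inclusion of single exons was not measured.

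FPKM were used as deposited. Genes with at least 1 FPKM in at least 2 libraries were compared on log2(FPKM + 1) with limma 3.58.1 in R 4.3.3 (eBayes with a mean-variance trend, group as the only term, two-sided, 2 residual and 5.62 prior degrees of freedom). Benjamini-Hochberg adjustment ran over all tested genes, with a threshold of 0.05. An exact permutation test over 4 libraries cannot go below p = 0.333 and was not used. With 2 libraries in a group, p-values reflect only how far such samples vary.

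The members and lists were chosen with earlier results of these data known. Per-library values are given, in each prefix, for the 4 rising members of largest change and any that fell. They are also given for the 2 of highest mean and those not tested. Fold changes are given for the 2 genes of smallest p in each pathway list. Other members and list genes described singly were chosen after their values were seen. Of 220 list entries, 213 matched by symbol, 6 by a RefSeq synonym and 1 did not match. Gene coordinates and exons are those of GENCODE M21 (GRCm38, the build of mm10), and promoter sequences are from RefSeq, GRCm38.p6. The 15 alternatives were 2 pseudocounts, 2 filters, 3 scalings, 2 variance models, 2 replicate blocks and leaving out each library. The values of 1 marker gene are not reported here.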

Additional observations from a re-analysis of the deposited data

How the results depend on the processing

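The number of rising members depended on the model more than the fold changes did. With no filter on low values, 0 members passed in limma, 0 in each prefix, and 3 genes rose and 4 fell among all tested. At an unadjusted p under 0.05 were 27 members and 3680 of all 16391 tested genes. Without a mean-variance trend 7 members rose (Hnrnp 2, Snrp 4, Srsf 1), with 548 genes higher and 299 lower. Quantile and TPM scaling each left 12 members, Hnrnp 2 and Srsf 3, and a pseudocount of 0.1 left Srsf 3. The prefix medians stayed between 0.49 and 0.65 for Hnrnp, 1.05 and 1.21 for Snrp and 0.68 and 0.84 for Srsf under the alternatives that use all libraries.

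Leaving out 1 library at a time gave 0 to 31 rising members (Hnrnp 0 to 11, Snrp 0 to 11, Srsf 0 to 9) and 0 to 2 falling, with 88 to 2122 genes higher and 38 to 1876 lower. Prefix medians then ranged from 0.57 to 0.76 for Hnrnp, 0.85 to 1.56 for Snrp and 0.60 to 1.02 for Srsf. The lone library is assumed to vary like the other group. Hnrnpa1, Hnrnpab, Snrpa1, Snrpd1, Snrpd3, Snrpf and Srsf1 passed in 10 of the 11 alternatives with all libraries, the exception being no filter.

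The replicate number is not said to mark a shared source. With it as a replicate block, 10 members rose (Hnrnp 2, Snrp 6, Srsf 2). Across tested genes the deviations of same-numbered libraries correlated at -0.16, and with the numbers crossed, an alternative chosen after seeing the data, 28 members rose (Hnrnp 11) and 1 fell, with 1686 genes higher and 1365 lower. Depth limits the untested Snrpn and Srsf12, both under 1 FPKM.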
